A study of Mus musculus with 4 samples.

Results

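The chromatin remodeller and Polycomb genes are 53 mouse genes whose products move, mark or organise nucleosomes, grouped here into 11 families. They were taken by name out of 21887 protein-coding genes, and a peak of open chromatin was assigned to a gene if its summit lay inside the gene or within 2 kb of either boundary. The peaks came from ATAC-seq, an assay in which a transposase inserts sequencing adapters where DNA is not wrapped or shielded, on newborn (postnatal day 0) mouse hearts. The labels name only heart tissue, whereas the methods of the study describe endothelial cells isolated from the hearts with CD31 beads. Wild-type (WT) and miR-187 mice gave 2 libraries each, and miR-187 mice carry an inserted copy of exogenous miR-187 driven by the Tek (Tie2) promoter, active in endothelial cells. Both groups were of the same age with no treatment named, the labels give no zygosity while the study, which bred both heterozygous and homozygous (KI/KI) mice, names KI/KI in the legend of its mouse accessibility tracks, and nothing says that replicates came from separate animals, so p-values measure only the spread between these libraries. The comparison asks whether open chromatin at these genes differed between WT and miR-187 hearts.

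SWI/SNF (BAF) and CHD proteins are ATP-driven motors that slide or evict nucleosomes and so open or close DNA to transcription factors. Polycomb complexes keep developmental genes silent: PRC2 methylates histone H3 at lysine K27 and PRC1 ubiquitylates histone H2A. Trithorax-type KMT2 methyltransferases and the p300/CBP acetyltransferases oppose them with marks of active promoters and enhancers, and deacetylases remove histone acetylation. DNA methyltransferases add methyl groups to cytosine in DNA and TET enzymes oxidise them. Several of these proteins, among them BRG1, CHD7, EZH2 and the KMT2 enzymes, are known for roles in heart development. Genes of this kind are used in most cell types and usually have promoters rich in CpG.

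Libraries differed in depth and in the length of their peak lists. WT replicates 1 and 2 had 9452 and 12298 peaks, and miR-187 replicates 1 and 2 had 7496 and 1483. The background read density inferred from the peak values was 1751, 5227, 2016 and 1032 reads per Mb in the same order, so that WT replicate 2 was the deepest and miR-187 replicate 2 the shallowest library. Endothelial marker genes with a peak numbered 3, 7, 5 and 2 of 12 in these libraries (25%, 58.3%, 41.7% and 16.7%). Over all protein-coding genes the share was 30.9%, 39.7%, 27.0% and 5.22%, against which all marker counts are to be read. In WT replicate 1 the endothelial share was thus below that of all genes. Pecam1, which encodes CD31 itself, had a peak in every library but miR-187 replicate 2. Cdh5 had one in every library but miR-187 replicate 1, and Esam in the miR-187 libraries alone. Emcn and Cldn5 had none in any. Fibroblast marker genes with a peak numbered 3, 5, 0 and 0 of 6, cardiomyocyte markers 3, 3, 2 and 0 of 12, immune markers 2, 1, 1 and 0 of 6, and erythroid markers 0, 1, 0 and 0 of 6. Fibroblast markers thus moved with the groups, and their part in the results was not tested. Read density was highest in a WT library and lowest in a miR-187 library, while WT replicate 1 and miR-187 replicate 1 lay between them, and values after thinning to equal read density and with equal numbers of peaks are given beside the main counts. In tissue samples, fewer cells of a type and less open chromatin per cell cannot be told apart.

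The promoters of these genes are shown first because most of the recurrent peaks lay on them. RefSeq promoter windows of build GRCm38.p6, from 250 bases before to 50 after a start, were held for 42 of the 53 genes, in 54 windows. The 4 genes below had a region of open chromatin, merged from overlapping peaks of 3 lists, that covered all 300 bases of the window, namely Chd8 (minus strand, chr14:52257711-52258010), Ezh2 (minus strand, chr6:47594981-47595280), Hdac2 (plus strand, chr10:36974294-36974593) and Smarca2 (plus strand, chr19:26604910-26605209). Yy1 (plus strand, chr12:108793047-108793346) is added because its start region was WT-only, a term used here for a gene or region that both WT libraries had in their lists while the miR-187 libraries did not, and that region covered 79 bases of the window. Sequences run 5′ to 3′ along the gene, and capitals mark matches, on either strand, to any of the searched motifs, which were the GC box GGGCGG, the CCAAT box, the ETS core CCGGAAG, the NRF1 core CGCANGCG, the YY1 core AANATGGC, the cyclic AMP response element (CRE) TGACGTCA and the TATA box TATAAA, where overlapping matches were counted separately.
Chd8: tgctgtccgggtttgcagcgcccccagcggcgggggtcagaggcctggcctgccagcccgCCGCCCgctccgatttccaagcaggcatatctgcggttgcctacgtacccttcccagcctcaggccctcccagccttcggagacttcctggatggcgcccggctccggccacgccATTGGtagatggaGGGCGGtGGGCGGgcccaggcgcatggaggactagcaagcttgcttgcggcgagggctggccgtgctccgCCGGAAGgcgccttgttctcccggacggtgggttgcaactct
Ezh2: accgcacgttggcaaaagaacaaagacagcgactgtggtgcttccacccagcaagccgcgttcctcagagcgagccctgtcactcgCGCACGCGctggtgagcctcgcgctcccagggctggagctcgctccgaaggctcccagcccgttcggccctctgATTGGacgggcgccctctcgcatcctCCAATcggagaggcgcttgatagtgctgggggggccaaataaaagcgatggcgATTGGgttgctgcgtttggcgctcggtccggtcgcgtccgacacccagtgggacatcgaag
Hdac2: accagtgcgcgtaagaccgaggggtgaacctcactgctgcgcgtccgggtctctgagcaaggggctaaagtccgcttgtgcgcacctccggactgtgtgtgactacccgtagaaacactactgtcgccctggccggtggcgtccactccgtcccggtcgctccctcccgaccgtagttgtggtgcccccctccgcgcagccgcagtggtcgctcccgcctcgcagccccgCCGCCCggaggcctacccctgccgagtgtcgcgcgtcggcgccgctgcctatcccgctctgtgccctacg
Smarca2: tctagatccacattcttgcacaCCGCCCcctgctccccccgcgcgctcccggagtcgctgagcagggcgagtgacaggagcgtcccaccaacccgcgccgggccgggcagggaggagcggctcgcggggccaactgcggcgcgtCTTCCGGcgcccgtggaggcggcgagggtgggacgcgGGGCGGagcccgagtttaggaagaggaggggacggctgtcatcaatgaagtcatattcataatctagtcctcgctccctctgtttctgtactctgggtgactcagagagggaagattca
Yy1: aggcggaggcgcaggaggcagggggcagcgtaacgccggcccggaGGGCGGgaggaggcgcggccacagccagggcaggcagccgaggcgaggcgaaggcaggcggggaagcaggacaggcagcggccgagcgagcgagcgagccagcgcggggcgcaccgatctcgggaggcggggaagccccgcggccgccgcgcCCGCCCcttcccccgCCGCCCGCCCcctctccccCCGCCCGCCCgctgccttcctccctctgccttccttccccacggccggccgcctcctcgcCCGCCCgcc

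All 5 windows were rich in G and C, from 64.3% in Ezh2 to 81.0% in Yy1, and none had a TATA box. The window of Chd8 held 3 GC boxes, 1 CCAAT box and 1 ETS core, and that of Smarca2 held 2 GC boxes and 1 ETS core. Ezh2 had 3 CCAAT boxes and 1 NRF1 core but no GC box. Hdac2 had a single GC box, while Yy1 had 7, several of them overlapping. Over the 54 windows of the listed genes, the median GC content was 69.5% and the median number of CpG 31, against 56.3% and 13 over 21263 windows of all protein-coding genes. A GC box occurred in 81.5% of the listed windows and in 46.2% of all windows. The NRF1 core occurred in 22.2% against 11.1%, and the YY1 core in 16.7% against 6.37%. In the other direction, the CCAAT box occurred in 20.4% against 38.2%, the TATA box in 3.70% against 12.6%, the ETS core in 7.41% against 11.6%, and the CRE in none of the 54 windows against 2.23%. Windows of the 32 genes with a start peak in any list had a median GC content of 70.3%, and those of the 10 genes without one 66.3%. A GC box was in 77.5% of the former windows and in 92.9% of the latter. These matches describe the sequence and do not show that a factor was bound.

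Open chromatin was found at 47 of the 53 genes in at least 1 library, whereas 49.1% of all protein-coding genes had a peak in none. In WT, replicate 1 had a peak at 34 genes (64.2%, 95% Wilson interval 50.7 to 75.7) and replicate 2 at 39 (73.6%, 60.4 to 83.6). In miR-187, replicate 1 had a peak at 25 genes (47.2%, 34.4 to 60.3) and replicate 2 at 3 (5.66%, 1.94 to 15.4). Both WT libraries were above both miR-187 libraries. The WT mean was 36.5 ± 3.54 genes and the miR-187 mean 14 ± 15.6 (SD, n = 2 each), a difference of -22.5 genes with p = 0.333 in a 2-sided exact permutation test, the smallest p that 2 against 2 libraries can give. Without miR-187 replicate 2 the difference was -11.5 genes. When peaks were thinned to the read density of the shallowest library, the expected numbers were 22.5 and 9.83 genes in WT and 15.5 and 3 in miR-187, a difference of -6.94 (exact permutation p = 0.667). These are lower estimates, since peaks not called in a list cannot enter. The whole lists thinned in the same way kept 5481, 2287, 4268 and 1483 peaks. In both counts WT replicate 2, the deepest library, fell below miR-187 replicate 1. How far each library falls short was not tested, so no order of the libraries is read from these numbers. With only the 1483 strongest peaks of each list, the difference was -1 gene, and with a −log10 q minimum of 5 it was -11 genes and the groups overlapped (exact permutation p = 0.667 for both). Summits inside the gene gave -12.5 genes.

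The listed genes held a peak more often than genes at large in 3 of the 4 libraries. Over all protein-coding genes the share with a peak was 30.9% and 39.7% in the WT libraries and 27.0% and 5.22% in the miR-187 libraries. The excess of the listed genes was 33.3 and 33.8 percentage points in WT replicates 1 and 2, 20.1 and 0.443 in the miR-187 replicates. The groups did not overlap, and the difference of their means was -23.3 points (exact permutation p = 0.333, n = 2 each), or -13.4 points without miR-187 replicate 2. With the 1483 strongest peaks of each list the same difference was -1.04 points, and a −log10 q minimum of 5 gave -10.3 points (exact permutation p = 0.667 for both). Summits inside the gene gave -10.5 points. Listed genes were also long, with a median of 51.8 kb against 17.2 kb. Among genes of 50 to 100 kb, 80.0%, 93.3%, 73.3% and 13.3% of 15 listed genes had a peak, compared with 44.6%, 54.0%, 40.1% and 9.02% of all genes of that length. Among genes under 20 kb the shares were 50.0%, 50.0%, 25% and 0% of 8 listed genes, compared with 21.6%, 30.1%, 19.5% and 3.00%. Among genes of 20 to 50 kb they were 50.0%, 55.6%, 38.9% and 0% of 18, compared with 36.8%, 47.8%, 31.5% and 5.77%. Above 100 kb they were 75.0%, 91.7%, 41.7% and 8.33% of 12, compared with 49.6%, 54.9%, 40.8% and 11.0%, so that the excess there was small or absent in the miR-187 libraries. A further 94 subunits and relatives of the same complexes, such as Actl6a, Smarca5 and Rbbp4, had a peak in 60.6%, 64.9%, 43.6% and 10.6% of cases, near the values of the listed genes in the first 3 libraries.

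**Figure D1:**
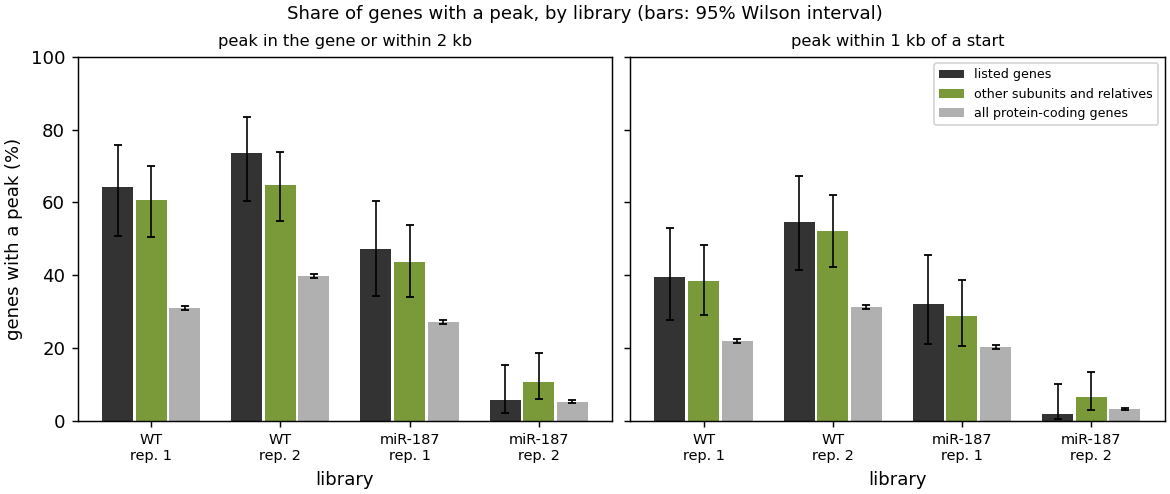
Percentage of genes with a peak (vertical axis, %) in each of the 4 libraries (horizontal axis), with a peak in the gene or within 2 kb on the left and within 1 kb of a start on the right, for 53 listed genes, 94 other subunits and relatives and 21887 protein-coding genes. Error bars are 95% Wilson intervals, and the listed genes stand at 64.2%, 73.6%, 47.2% and 5.66% in the left panel, above all genes in the first 3 libraries.

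Peaks at listed genes numbered 44 and 58 in WT and 29 and 5 in miR-187, 136 in all. The means were 51 ± 9.90 and 17 ± 17.0 (SD, n = 2 each), and the difference of -34 peaks, or -22 without miR-187 replicate 2, had an exact permutation p of 0.333. After thinning, the difference was -6.82 peaks (exact permutation p = 0.667). With a −log10 q minimum of 5 it was -14 peaks and the groups overlapped (exact permutation p = 0.667). With the 1483 strongest peaks of each list it was 0. Relative to the length of the list, there were 4.66 and 4.72 such peaks per 1000 peaks in WT and 3.87 and 3.37 in miR-187. The difference of these shares, -1.07 per 1000, was larger than the spread within either group (SD 0.0432 and 0.352), again with an exact permutation p of 0.333, but it was 0 when every list was cut to its 1483 strongest peaks, -0.557 with summits inside the gene, -0.599 without peaks shared with another gene, and -2.42 with overlapping groups at a −log10 q minimum of 5 (exact permutation p = 0.667). Peaks at listed genes were of ordinary strength. Their median percentile rank by −log10 q within the list, where 50 is the middle, was 54.0, 54.4, 57.4 and 49.4, and group means differed by -0.76 (exact permutation p = 1). That difference was -25.7 with the 1483 strongest peaks of each list and -7.56 with summits inside the gene (exact permutation p = 0.333 for both). The median fold enrichment at the summit over local background was 5.11, 4.81, 5.56 and 5.32, and that of all peaks 5.18, 5.0, 5.56 and 5.41.

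The share of peaks that lay at a start was below that of genes at large in each library, as a description without a test. The measures are not quite alike, since a peak at a listed gene counted only at a start of that gene. For all peaks assigned to genes, a start of any gene counted, which can make the listed share lower. Peaks at listed genes lay within 1 kb of a start in 47.7% and 60.3% of cases in WT and in 62.1% and 20% in miR-187, against 61.5%, 67.4%, 68.7% and 59.1% of all peaks assigned to genes. Of the 103 peaks at the 42 genes with a known start, 37 had the summit within 250 bp of it, a further 25 within 1 kb and 29 more than 10 kb away. The median distance was 0.690 and 0.408 kb in WT replicates 1 and 2 and 0.321 kb in miR-187 replicate 1, while 4 of the 5 peaks of miR-187 replicate 2 lay more than 1 kb away. Peaks within 1 kb of a start, or of either boundary for the 11 genes whose start was not held, were found at 21, 29, 17 and 1 of the 53 genes. Over all protein-coding genes the share was 21.8%, 31.2%, 20.2% and 3.16%, against 39.6%, 54.7%, 32.1% and 1.89% for the listed genes. The group means were 25 ± 5.66 and 9 ± 11.3 genes (SD, n = 2 each), and the difference was -16 (exact permutation p = 0.333), or -8 without miR-187 replicate 2. Both WT libraries were above both miR-187 libraries as deposited. With a −log10 q minimum of 5 the difference was -8.5 genes and the groups overlapped (exact permutation p = 0.667). After thinning to equal read density the lower estimates were 13.0, 6.28, 10.3 and 1, and with the 1483 strongest peaks of each list the difference was -1 (exact permutation p = 1).

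**Figure D2:**
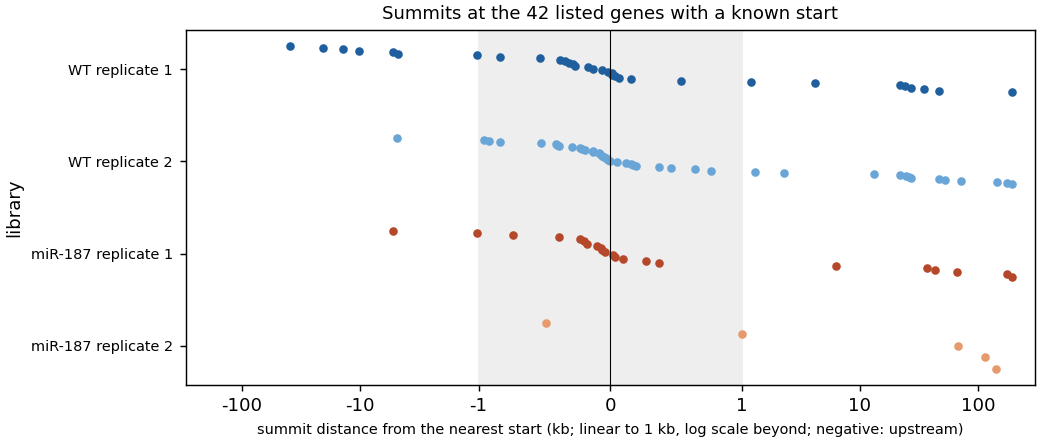
Distance of each summit from the nearest start of its gene (horizontal axis, kb, linear to 1 kb and logarithmic beyond, negative upstream) for the 42 listed genes with a known start, with 1 row of points per library. The grey band marks 1 kb to either side, which holds 62 of the 103 peaks, and in miR-187 replicate 2 it holds only 1 of 5.

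How the genes fell over the 4 lists is shown in the map of genes by library. A peak in all 4 lists was found at 3 genes (Smarca2, Arid1a and Tet3), 5.66% of the listed genes against 2.35% of all genes. In WT replicates 1 and 2 with miR-187 replicate 1 it was found at 15 others, 28.3% against 12.5%. These 18 genes are 34.0% of the 53, whereas 16.3% of all genes had a peak in at least 3 lists. The WT-only pattern was found at 9 genes (17.0%), namely Smarca4, Smarcc1, Smarcd1, Arid2, Chd7, Kmt2c, Dnmt3a, Ctcf and Yy1. Over all genes its share was 7.88%. It has to be read against how often these genes were open in both WT libraries to begin with, since 27 listed genes were. Of those 27, 9 (33.3%) had no miR-187 peak, and of all genes open in both WT libraries 33.6% had none, so that the listed genes stood at the background. Leaving out a library relaxes this rule, so the number of genes that meet it can only stay or rise. It was 16, 15 and 24 without WT replicate 1, WT replicate 2 or miR-187 replicate 1, and 9 without miR-187 replicate 2. No share over all genes was computed for the relaxed rule. The opposite pattern, with both miR-187 libraries and no WT library, was found at none of the 53 genes and at 0.169% of all genes. With start peaks alone, 6 listed genes (11.3%) were WT-only, against 6% of all genes. Of the 14 listed genes with a start peak in both WT libraries, these 6 are 42.9%, and the same share over all such genes was 36.3%. A peak in a single list was found at 14 genes, of which 7 had it in WT replicate 2, 6 in WT replicate 1 and 1 in miR-187 replicate 1. These are 13.2%, 11.3% and 1.89% of the listed genes, against 9.07%, 4.90% and 3.00% of all genes. A further 15 had a peak in 2 lists. No peak in any list was found at Smarce1, Bmi1, Cbx2, Kat2a, Sirt1 and Med12, 11.3% of the listed genes, against 49.1% of all genes.

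**Figure D3:**
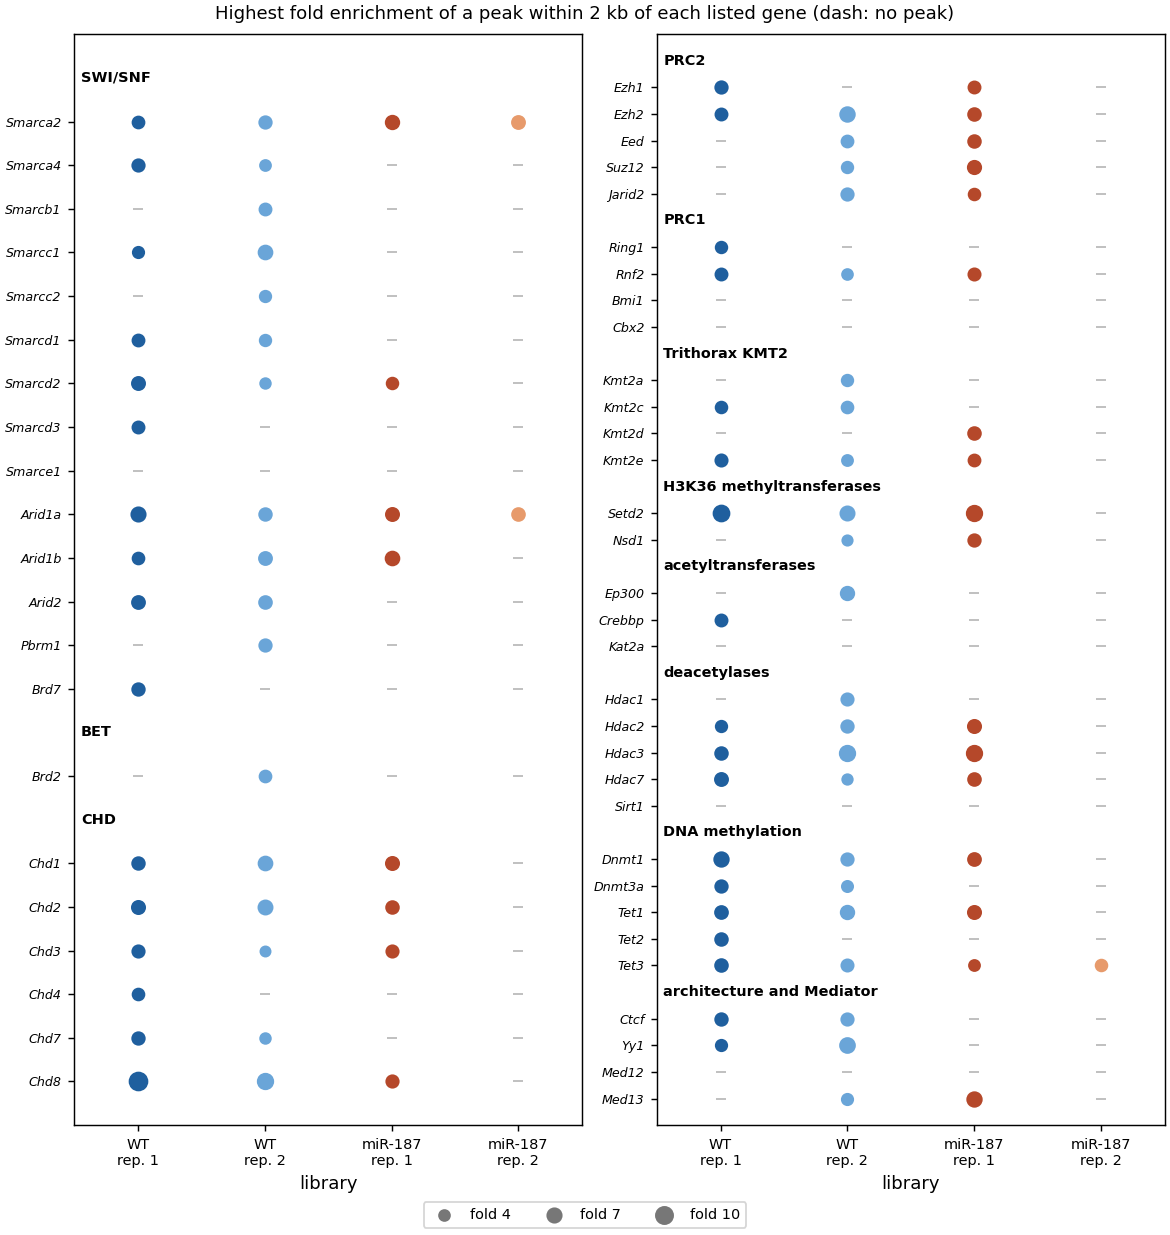
Map of the 53 listed genes (rows, by family) in the 4 libraries (columns), where each point is the peak with the highest fold enrichment within 2 kb of the gene, the area of the point grows with the fold and a dash means no peak. Points fill 34 and 39 rows in the WT columns and 25 and 3 in the miR-187 columns.

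Among the 14 SWI/SNF genes, a peak was present at 10 and 11 in WT and at 4 and 2 in miR-187. Counts by family are given as descriptions without a test, to be read here and below against the share of all protein-coding genes. That share was 30.9% and 39.7% in the WT libraries and 27.0% and 5.22% in the miR-187 libraries. In miR-187 replicate 1 the SWI/SNF share, 28.6%, was near that of all genes. Smarca2 encodes BRM, one of the alternative ATPases of the complex, and had 1, 2, 2 and 3 peaks with a highest fold of 4.85, 5.32, 6.25 and 5.80, in the order of libraries used above. It was the only listed gene with a start peak in miR-187 replicate 2 (fold 5.32, −log10 q 2.89). That peak, at chr19:26604625-26604824, lay upstream of the window printed above and overlapped the start peak of WT replicate 1, whereas WT replicate 2, the deepest library, had no peak there. Smarca4, which encodes the other ATPase BRG1, had a peak of fold 5.26 in WT replicate 1 and 4.09 in WT replicate 2 and none in either miR-187 library. These peaks at Smarca4 did not overlap but lay on either side of the start, at chr9:21616529-21616759 and chr9:21615785-21616019. The ATPase genes thus differed in the lists in which they had a peak, on at most 3 peaks a library.

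The DNA-binding ARID subunits, which define the BAF and PBAF forms of the complex, differed among themselves as well. Arid1a had 2, 5, 1 and 1 peaks with a highest fold of 6.98, 5.45, 5.92 and 5.61, and so was open somewhere in every library, but none of its regions was found in more than 2 lists. Arid1b had a region 195 kb downstream of its start, at chr17:5189653-5190601, with a fold of 4.79, 5.80 and 6.50 in WT replicates 1 and 2 and miR-187 replicate 1. Arid2, the subunit particular to PBAF, had 2 and 3 peaks in WT (highest fold 5.77 and 5.61) and none in miR-187. Its peaks upstream of the gene also lay within 2 kb of Gm38469. The core subunits Smarcc1 (4.41 and 6.57) and Smarcd1 (4.95 and 4.55) likewise had a WT-only peak at the start, which in Smarcd1 was shared with Asic1. Smarcd2, an alternative to Smarcd1 in the complex, had 2, 1 and 1 peaks, with a highest fold of 5.88, 3.85 and 4.65, in WT replicates 1 and 2 and miR-187 replicate 1, all of them also within 2 kb of Tcam1. The other 6 genes of the family, which include the core subunit Smarcb1 and the PBAF subunits Pbrm1 and Brd7, had a peak in 1 WT list or in none. The BET gene Brd2, a reader of acetylated histones, had 2 peaks, both in WT replicate 2.

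All 6 CHD genes had a peak in WT replicate 1 and 5 in WT replicate 2, compared with 4 and none in the miR-187 libraries. Over all protein-coding genes the shares were 30.9% and 39.7% in WT and 27.0% and 5.22% in miR-187. The strongest peak by fold at any listed gene was at the start of Chd8, an ATPase linked to β-catenin signalling, with a fold of 10.9 and a −log10 q of 14.3 in WT replicate 1. In the same region, chr14:52257705-52258210, the fold was 5.59 in WT replicate 2 and 5.23 in miR-187 replicate 1. The WT libraries thus differed from each other at Chd8 by more than WT replicate 2 differed from miR-187 replicate 1. WT replicate 2 had a second peak at Chd8, 13.2 kb downstream of the start, with a fold of 8.18. Chd1, which reads H3K4 methylation, had 1 peak at its boundary in each of the 3 lists with a fold of 5.43, 6.58 and 5.96. Chd2 had a region at chr7:73537601-73538145, inside the gene, of fold 4.58, 6.81 and 5.51 and a second region in both WT lists of fold 5.95 and 6.16. Chd3, an ATPase of the NuRD repressor complex, had a peak in the same 3 lists, of fold 5.22, 3.5 and 5.19, inside the gene. Chd7, the gene mutated in CHARGE syndrome, had 3 and 2 peaks in WT, all inside the gene with a fold of 3.87 to 5.36, and none in miR-187. Chd4, the other NuRD ATPase of the list, had a peak in WT replicate 1 alone.

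Of the 5 PRC2 genes, 2 and 4 had a peak in WT and 5 and none in miR-187, where 30.9%, 39.7%, 27.0% and 5.22% of all protein-coding genes had one. The count in miR-187 replicate 1 was 1 gene above that of WT replicate 2, and with start peaks alone the counts were 2 and 3 in WT and 3 and 0 in miR-187. The gene without a peak in WT replicate 2 was Ezh1, whose peak in miR-187 replicate 1 lay outside the gene and within 2 kb of Cntnap1 as well. Ezh2, the methyltransferase of PRC2, had a region over its start at chr6:47594930-47595503, with a fold of 5.0, 7.32 and 5.56 and a −log10 q of 3.10, 11.3 and 3.97 in WT replicates 1 and 2 and miR-187 replicate 1. The value in miR-187 replicate 1 thus lay between those of the WT libraries. The following genes fall outside the rule for named genes and were chosen after their values were seen. Eed, which binds the H3K27 methyl mark, had a start peak of fold 4.92 in WT replicate 2 and 5.50 in miR-187 replicate 1, and Suz12, the scaffold of the complex, one of 4.55 and 6.10. Jarid2, which helps to recruit PRC2, had a region deep inside the gene in the same libraries, with a fold of 5.28 and 4.69. Ezh1, the alternative methyltransferase, had a peak in WT replicate 1 (5.30) and, 1314 bp beyond the other end of the gene and shared with Cntnap1, in miR-187 replicate 1 (5.0). Eed, Suz12 and Jarid2 share a pattern, present in the second WT and the first miR-187 library alone, with Nsd1 and Med13, and these 5 genes are 9.43% of the listed genes, against 6.11% of all genes.

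Of the 4 PRC1 genes, 2 had a peak in any list. Over all protein-coding genes 49.1% had no peak in any list, so this count was near the background. Rnf2, which encodes the ubiquitin ligase RING1B, had a start peak of fold 5.0, 4.01 and 5.11 in WT replicates 1 and 2 and miR-187 replicate 1. Its partner Ring1 had a peak in WT replicate 1 only, and Bmi1 and Cbx2 had none.

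The 4 Trithorax-type KMT2 genes had a peak at 2 and 3 in WT and at 2 and 0 in miR-187. Kmt2e had a region at its boundary with a fold of 5.14, 4.15 and 4.92 in WT replicates 1 and 2 and miR-187 replicate 1. Kmt2c, an H3K4 methyltransferase of enhancers, had a peak just upstream of its start with a fold of 4.69 and 4.78 in WT and none in miR-187, whereas its relative Kmt2d had its only peak in miR-187 replicate 1. Setd2, which trimethylates H3K36, had a strong start peak in 3 libraries: at chr9:110532071-110532512 the fold was 8.65 and 6.89 in WT replicates 1 and 2 and 8.17 in miR-187 replicate 1, with a −log10 q of 10.2, 10.3 and 9.22. Setd2 was not in the list of miR-187 replicate 2. With Nsd1, the other H3K36 methyltransferase of the list, the family had a peak at 1 and 2 genes in WT and at 2 and 0 in miR-187. The acetyltransferases Ep300 and Crebbp had 1 peak each, in WT replicate 2 and in WT replicate 1, and Kat2a had none.

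The 5 deacetylase genes had a peak at 3 and 4 in WT and at 3 and 0 in miR-187. Hdac2, a class I enzyme of the NuRD, SIN3 and CoREST corepressors, had a start peak of fold 4.50, 5.35 and 5.98 in WT replicates 1 and 2 and miR-187 replicate 1. Hdac3, the enzyme of the NCoR corepressor, had a region within 2 kb of its boundary of fold 5.43, 8.18 and 8.15, which also lay within 2 kb of Diaph1. Hdac7, a class IIa enzyme known in endothelial cells, had a peak in the same 3 lists (5.85, 3.77 and 5.60), each in a different place of the gene. At Hdac2 and at the Hdac3 region near Diaph1, the fold in miR-187 replicate 1 was above that of WT replicate 1 and close to that of WT replicate 2.

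Among the 5 genes of DNA methylation, 5 and 4 had a peak in WT and 3 and 1 in miR-187. Dnmt1, the maintenance methyltransferase, had a region at one of its starts of fold 7.21, 5.28 and 5.73 in WT replicates 1 and 2 and miR-187 replicate 1. Dnmt3a, a de novo methyltransferase, had 3 and 1 peaks in WT with a highest fold of 5.34 and 4.29, away from its starts, and none in miR-187. Tet1 had 1, 2 and 2 peaks with a highest fold of 5.70, 6.25 and 5.95 in the same order of 3 libraries. Tet3, which like Tet1 oxidises 5-methylcytosine, had a peak in every list, of highest fold 5.56, 5.10, 4.13 and 4.69, but its regions agreed between lists only at its start, in WT replicate 2 and miR-187 replicate 1. Ctcf, which bounds chromatin loops, had a start region in both WT lists of fold 5.39 and 5.25 and none in miR-187. Yy1, a zinc-finger factor that joins promoters to enhancers, had one of fold 4.46 and 7.56 in WT, at chr12:108792739-108793125, and none in miR-187. Med13, a subunit of the Mediator kinase module, had a peak of fold 7.22 near its start in miR-187 replicate 1, 1 of the 5 highest at listed genes in that library (percentile rank 87.7 by −log10 q in its list), and a peak of fold 4.40 inside the gene in WT replicate 2.

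Merging peaks that overlapped by at least 1 bp gave 87 regions at the listed genes. Of these, 51 were in 1 list, 24 in 2, 12 in 3 and none in all 4. A share of 41.4% was in 2 or more lists, against 37.0% of the 15448 regions within 2 kb of any protein-coding gene. Only 253 of those 15448 regions were in all 4 lists. WT-only regions numbered 14 (16.1%), against 8.62% of all 20919 regions, which include regions far from any gene. Of the 25 listed regions that both WT libraries had, these 14 are 56%, and over all regions that both had the share was 42.4%. Leaving out WT replicate 1, WT replicate 2 or miR-187 replicate 1 relaxes the rule for regions too, and 39, 30 and 25 then met it. Away from starts, 32.1% of the 28 regions of listed genes with a known start were in 2 or more lists, whereas 17.8% of the corresponding regions of all such genes were. At starts the shares were 40.0% of 40 regions and 51.2%. Thus the listed genes stood above all genes away from starts and below them at starts, as a description without a test. Where the same region was in 2 lists, its fold was similar: over the 14 regions shared by WT replicate 1 and miR-187 replicate 1, the median log2 ratio of WT over miR-187 was -0.08 (range -0.58 to 1.05), and over the 18 shared by WT replicate 2 and miR-187 replicate 1 it was -0.16 (-0.59 to 0.40). The same ratio between the WT replicates was 0.03 over 25 regions (-0.76 to 0.96). The ranges between groups therefore lay within or close to the range between the WT replicates, for regions that were strong enough to be in both lists.

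**Figure D4:**
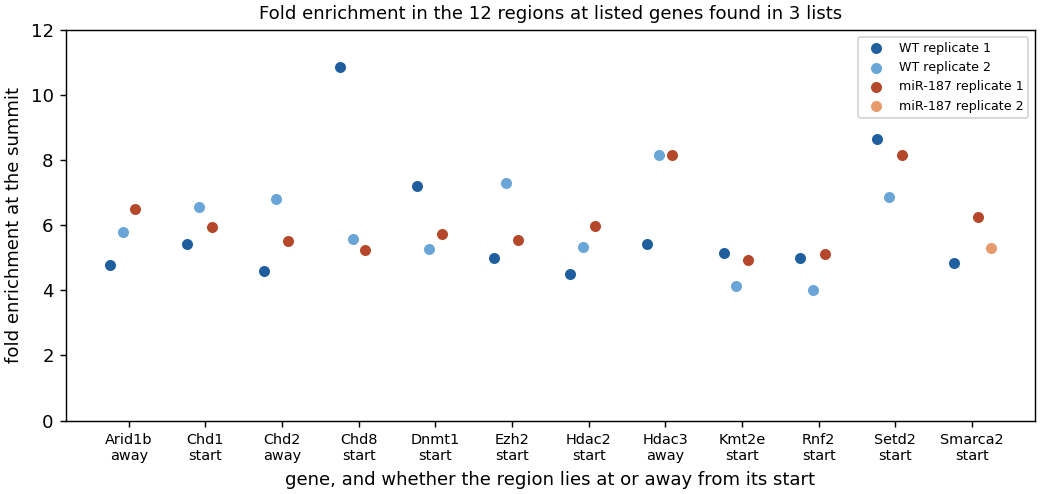
Fold enrichment at the summit (vertical axis) in the 12 regions at listed genes that were in 3 lists (horizontal axis, with the gene and whether the region is at or away from its start), with 1 point per library. Chd8 in WT replicate 1 stands highest at 10.9, Setd2 lies between 6.89 and 8.65 in 3 libraries, and miR-187 replicate 2 appears only at Smarca2.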

How the data were processed

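ATAC-seq peak lists of 4 libraries (WT and miR-187, 2 each, grouped by title) were used. The submitters' processing notes list Bowtie2 2.2.6, SAMtools 1.10, MACS2 2.2.7.1, deepTools 3.3.2, HOMER 4.11, FastQC, ChIPseeker and DiffBind, and the build mm10, without settings. Replicates were not pooled. Each deposited list gave, per peak, its position, a score, the fold enrichment (a ratio) at the summit, and −log10 p and −log10 q values as the authors' peak caller wrote them, with a lowest −log10 q of 1.30 to 1.33.

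Positions are 1-based. Summits on chromosomes 1 to 19, X and Y were assigned to genes of a RefSeq table (GRCm38.p6), and 6, 20, 6 and 0 peaks on scaffolds were left out. Starts came from RefSeq promoter entries for 42 listed genes. For the other 11 (Hdac1, Smarce1, Chd3, Chd7, Chd2, Nsd1, Hdac3, Chd1, Kmt2e, Cbx2 and Arid2) both boundaries were used. Depth was not given by the lists. A whole-number pileup and a background were solved from the fold and −log10 p of each peak (tolerance 0.0005), a step tested on simulated data, and the lowest background per 200 bp of read extension gave the read density. For thinning, reads were kept in proportion to the densities. Peaks not called in the deeper list cannot enter, so thinned numbers are lower estimates.

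Each value was taken per library, and the groups were compared with an exact permutation test (2-sided, 6 arrangements of the libraries, smallest p 0.333). Wilson intervals (95%) cover counting error only. Genes were described with values if they had a peak in at least 3 lists, or in both lists of one group and neither of the other, or held one of the 5 peaks of highest fold in a library. The members and lists were chosen with earlier results of these data known. Alternatives were other windows, a −log10 q of at least 5, equal numbers of peaks, unshared peaks only, 50% reciprocal overlap, thinning, leaving out each library and a replicate block. Scripts ran in Python 3.11.15 with pandas 2.3.3, numpy 2.4.6, matplotlib 3.10.9 and scipy 1.17.1.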

Additional observations from a re-analysis of the deposited data

How the results depend on the processing

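No difference between the groups could pass a threshold of 0.05 in any setting, because the smallest exact permutation p for 2 against 2 libraries is 0.333, so stability can be read only from directions and sizes. For listed genes with a peak, peaks and genes with a start peak, the miR-187 mean was lower under each alternative run, with an exception. The exception was an equal number of peaks per list, where the difference in peaks and in peaks per 1000 was 0. In these counts the groups overlapped at a −log10 q of at least 5, with equal numbers of peaks and after thinning. No direction is read from the thinned values, which are lower estimates. The number of listed genes that were WT-only fell from 9 to 3 with summits inside the gene, to 2 with a −log10 q of at least 5 and to 1 with equal numbers of peaks. The number of WT-only regions fell from 14 to 2 with a −log10 q of at least 5, to 0 with equal numbers of peaks and to 9 with 50% reciprocal overlap. Leaving out each library in turn gave 9 to 24 genes and 14 to 39 regions, highest for genes without miR-187 replicate 1 and for regions without WT replicate 1. Since this relaxes the rule, no stability is read from these numbers. On leaving out libraries, the difference in median strength rank ranged from -4.76 to 3.24 and changed sign without miR-187 replicate 2, a direction the main test (exact permutation p = 1) does not carry. It was -25.7 with equal numbers of peaks and -7.56 with summits inside the gene. It was not computed at a −log10 q of at least 5, where miR-187 replicate 2 has no peak at a listed gene. With the replicate block the difference in listed genes with a peak was -22.5 (exact sign-flip permutation p = 0.5, the smallest possible). Same-numbered libraries did not deviate together (r = -0.14 over 20919 regions), and the crossed pairing, added after seeing the data, also gave 0.5. The miR-187 minus WT difference in the excess over all genes, -23.3 points, was -1.04 with equal numbers of peaks, -20.6 within the length range of the listed genes and -24.5 for genes of at least 50 kb, the last pair added after seeing the data.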

Other observations

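Of the 136 peaks at the listed genes, 22 also lay within 2 kb of another protein-coding gene, at 10 of the 53 genes. The neighbours were Gnl3 beside Pbrm1, Asic1 beside Smarcd1, Nop2 beside Chd4, Rell2 and Diaph1 beside Hdac3, H2-DMa beside Brd2, H2-Ke6 beside Ring1, Tcam1 beside Smarcd2, Cntnap1 beside Ezh1, Gm38469 beside Arid2 and Mmp11 beside Smarcb1. The peak lists do not tell which gene such a region serves. Without these shared peaks, the difference in listed genes with a peak was -19, against -22.5 with them.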
